A study of Mus musculus with 4 samples.

Results

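Trp63, Klf4, Grhl3 and Dlx3 are the 4 regulators of epidermal differentiation chosen here from a Xenium in situ panel of 328 genes, on which they were counted cell by cell in skin and buccal mucosa. The series asked how the oral factor PITX1 changes skin keratinocytes, so these genes were followed through the layers of the epidermis, the parts of the hair follicle and the sections of each tissue. Across 17 sections on 4 slides, 426404 cells held at least 10 transcripts, and 162697 of them fell in epithelial clusters.

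Keratinocytes divide in the basal layer, leave it, and build keratins, desmosomes and finally the cornified envelope as they move outward. Trp63 encodes p63, the factor that sets up and maintains stratified epithelium and that marks its basal layer. Klf4 encodes a zinc-finger factor needed for the skin barrier in the outer layers. Grhl3 encodes a Grainyhead-like factor that drives barrier and cornified envelope genes and closes epithelial gaps. Dlx3 encodes a homeodomain factor of the upper epidermis that is also needed to build the hair shaft and inner root sheath.

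Mice carried Krt5-rtTA and TRE-Pitx1, an inducible pair in which the Krt5 promoter, active in basal keratinocytes, drives the activator, and doxycycline in the diet switches it on. Animals without the drug are called Control here (the labels' Vehicle) and those given it PITX1+, and the diet began while hair growth was at rest. Doxycycline was therefore given to the PITX1+ animals alone, and the drug and the transgene cannot be told apart. Unwounded skin lay on a female slide (Control 1 and 2, PITX1+ 1 and 2) and a male slide (Control 3, PITX1+ 3 and 4), and a male slide of day 4 wounds held 1 Control and 2 PITX1+ sections. Buccal mucosa came from Control mice of both sexes, in 7 sections on 1 slide. Buccal section 3 held 11 epithelial cells and was left out of epithelial values, so that n = 6 there. The labels name slides and not the condition of each section, which was assigned by its place along the slide. The sections match in number the mice, mucosae and wounds that the study describes, but the labels tie no section to an animal. P-values measure the spread between sections.

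Pitx1, the induced gene, was the check on that assignment. In all epithelial cells it stood at 61.4, 55.5 and 12.2 CPM (transcripts per 1000000 panel transcripts of those cells) in Control 1, 2 and 3. It reached 1055 and 835 CPM in PITX1+ 3 and 4 on the male slide, but 45.4 and 77.4 CPM in PITX1+ 1 and 2 on the female slide. Within the male slide Pitx1 rose by 5.88 on the log2 scale (edgeR quasi-likelihood test, Benjamini-Hochberg adjusted p = 0.0130, with 1 Control section against 2, its spread taken to be that of the other groups), while on the female slide the difference was 0.39 (adjusted p = 0.465). Pitx1 was 51.2 CPM in the Control wound, 633 and 326 CPM in the PITX1+ wounds and 737 to 1259 CPM in buccal mucosa. Over all epithelial cells of unwounded skin, a rise in Pitx1 was thus measured on the male slide alone. In basal-like cells every PITX1+ section lay above every Control section, at 484 ± 649 CPM (SD, n = 4) against 37.1 ± 5.01 CPM (n = 3). That difference of 1.87 on the log2 scale was not called (edgeR adjusted p = 0.188). On the female slide it was 0.96 in basal-like cells (edgeR adjusted p = 0.432) and -0.31 in bulge-like cells (adjusted p = 0.655). For PITX1+ 1 and 2 the check over all epithelial cells did not bear out the assignment by place, and the order in basal-like cells was not called. A wrong assignment and a lack of induction there cannot be told apart from Pitx1. The makeup of the follicle did part those sections from unwounded Control. Hair matrix-like, hair shaft-like and cycling cells held 2.55 and 8.96% of all transcripts in PITX1+ 1 and 2 and 0.0398 to 0.214% in that Control skin. It did not part the wounds that way, with 7.17% in the Control wound and 0.728 to 4.08% in the PITX1+ wounds. Directions below that rest on PITX1+ 1 and 2 carry that doubt. Depth per section was 474847 to 749248 transcripts for Control skin, 2832562 to 5581930 in PITX1+ skin, 136365 to 2368603 for buccal mucosa and 1622746 to 5430303 for wounds. The median epithelial cell held 25 to 45 transcripts in Control, 70 to 99 in PITX1+, 124 to 215 in buccal mucosa (n = 6) and 96 to 109 in wounds.

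Cell classes were clusters named "-like" from marker genes, with the 4 regulators left out of the clustering, so that their levels across classes did not shape the classes. Differentiated-like cells join the cornifying-like clusters of skin and the oral suprabasal-like clusters of buccal mucosa. Basal-like cells lay mostly in 1 cluster in Control (4201 cells) and in another in buccal mucosa (7966 cells), and PITX1+ cells lay mostly in 2 others (4779 and 5355 cells). Differentiated-like cells of Control and of PITX1+ 3 and 4 shared 1 cluster, while those of PITX1+ 1 and 2 lay in a different one. CPM is a share of a class's panel transcripts, so an abundant gene lowers all others, and edgeR's TMM scaling is meant to allow for that. TMM was used for the folds below unless library size or DESeq2 is named. With plain library size in place of TMM, the median log2 fold change of all genes moved from -0.27 to -1.62 in buccal against Control epithelium and from -0.15 to -1.89 in their differentiated-like cells, and folds are best read relative to such shifts.

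The promoters of Klf4 and Grhl3, the pair of these regulators whose levels ran most alike across classes, are shown from RefSeq (mouse build GRCm38.p6, minus strand of chromosome 4), from 250 bases before to 50 after each annotated start. Klf4 lies at chr4:55532426-55532725 and Grhl3 at chr4:135573583-135573882. Trp63 and Dlx3 had no entry in the table used. Capitals mark the GC box GGGCGG, read on either strand as GGGCGG or CCGCCC, with overlapping matches counted.
Klf4: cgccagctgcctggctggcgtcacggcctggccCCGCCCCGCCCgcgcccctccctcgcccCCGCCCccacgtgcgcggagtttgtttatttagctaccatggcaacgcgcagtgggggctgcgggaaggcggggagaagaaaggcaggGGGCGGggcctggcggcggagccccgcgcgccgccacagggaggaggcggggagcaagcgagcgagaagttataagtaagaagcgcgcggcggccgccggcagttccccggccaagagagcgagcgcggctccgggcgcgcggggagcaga
Grhl3: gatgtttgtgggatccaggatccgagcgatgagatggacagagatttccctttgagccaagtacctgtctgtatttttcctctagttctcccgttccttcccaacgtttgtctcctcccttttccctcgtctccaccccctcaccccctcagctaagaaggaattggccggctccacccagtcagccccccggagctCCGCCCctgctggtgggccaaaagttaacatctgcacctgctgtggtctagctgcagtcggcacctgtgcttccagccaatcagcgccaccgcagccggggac
Klf4 held 1 match on the printed strand and 3 on the other, and Grhl3 held 1 on the other strand. Of 32851 promoters of this length, 35.7% held the motif on either strand. The letters TAATCC, a core bound by PITX-type homeodomains, occurred in neither window and in 7.06% of all promoters.

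In the median Control section all 4 genes were largely epithelial, with 80.8% of Klf4 transcripts in epithelial cells, 82.1% of Dlx3, 82.2% of Grhl3 and 89.8% of Trp63, against 53.3% of all panel transcripts. Epithelial cells held 76.0 to 94.1% of a section's Dlx3 transcripts in Control, 77.9 to 97.7% of its Grhl3 and 83.2 to 92.9% of its Trp63, against 36.7 to 56.0% of all panel transcripts. For Klf4 the share was 47.7 to 85.8%, lowest in Control 3, and vascular-like cells, fibroblast-like cells and immune-like cells carried it too. Klf4 in immune-like cells was 998 to 3819 CPM in Control and 2667 to 5953 CPM in buccal mucosa. In the same immune-like cells, which should lack them, Dlx3 was 20.3 to 454 CPM and Grhl3 20.3 to 526 CPM in Control, and Trp63 was 264 to 1194 CPM. Levels near those values cannot be told apart from transcripts spilled over from neighbouring cells.

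The first comparison set the differentiated-like cells against the basal-like cells of the same section, asking where each factor is used. Klf4, Grhl3 and Dlx3 were called higher in differentiated-like cells in all 3 tissues, although in PITX1+ skin the calls on Klf4 and Dlx3 did not hold with every section left out, and Dlx3 was lower there in PITX1+ 3. Trp63 was lower there in Control and buccal mucosa, and its difference in PITX1+ skin did not pass the test. The other panel genes defined these layers, so nothing is read from the share of genes called, which was 42.6% in Control, 27.2% in PITX1+ skin and 87.5% in buccal mucosa. With library size in place of TMM the median log2 difference of all genes between layers moved from 0.03 to -0.46 in Control, from -0.11 to -1.40 in PITX1+ skin and from -0.14 to -1.34 in buccal mucosa. Basal-like cells of Control carried transcripts of outer layers too, since Krt77, a suprabasal keratin, was their most abundant panel gene and Flg2, a cornified envelope gene, stood at 33700 ± 10220 CPM (SD, n = 3), against 4819 ± 6961 CPM in PITX1+ (n = 4) and 36.3 ± 11.9 CPM in buccal basal-like cells (n = 6). Their part in the Control layer differences was not tested.

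In Control skin, Dlx3 was 808, 726 and 335 CPM in basal-like cells of sections 1, 2 and 3, and 3049, 2202 and 1170 CPM in differentiated-like cells. It was higher in the outer layer of each section, and the layers did not overlap. The difference was 2.24 on the log2 scale (SE 0.22, edgeR with section as a block, adjusted p = 0.000133). Grhl3 rose from 1169, 840 and 2883 CPM to 2759, 1767 and 6634 CPM, a log2 difference of 1.61 (SE 0.19, edgeR adjusted p = 0.000297), with Control 3 high in both layers. Klf4 rose from 5545, 6384 and 8213 CPM to 10270, 8458 and 10490 CPM, a log2 difference of 0.99 (SE 0.21, edgeR adjusted p = 0.00535). Trp63 fell from 20515, 19346 and 24137 CPM to 9950, 10997 and 11295 CPM, a log2 difference of -0.55 (SE 0.17, edgeR adjusted p = 0.0302). That fall in Trp63 did not hold with 30 clusters in place of 45, where the difference was 0.37 (adjusted p = 0.255), nor without Control 1 (-0.41, adjusted p = 0.115), nor with nuclear transcripts alone (-0.44, adjusted p = 0.162).

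In buccal mucosa all 4 genes were called between the layers. Trp63 ran from 17332 to 20997 CPM in basal-like cells (n = 6) and from 1694 to 3090 CPM in differentiated-like cells, with no overlap. It fell by 1.84 on the log2 scale (SE 0.09, edgeR adjusted p = 7.71e-08). Klf4 rose from 2972 to 5285 CPM to a range of 10510 to 12028 CPM, a log2 difference of 2.74 (SE 0.16, edgeR adjusted p = 2.08e-07). Grhl3 rose from 1785 to 2363 CPM to a range of 6181 to 7518 CPM, a log2 difference of 2.88 (SE 0.11, edgeR adjusted p = 1.27e-08). Dlx3 moved least, from 1613 to 2500 CPM to a range of 2335 to 3639 CPM, and its log2 difference was 1.67 (SE 0.09, edgeR adjusted p = 1.02e-07). With library size in place of TMM the buccal differences were -3.04 for Trp63, 1.54 for Klf4, 1.69 for Grhl3 and 0.47 for Dlx3, and all 4 were called (edgeR adjusted p = 5.59e-09, 5.25e-07, 7.85e-08 and 0.000331). The 2 ranges of Dlx3 overlap between sections, while each section was compared with itself in the test.

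In PITX1+ skin, Grhl3 was 710, 543, 1166 and 1982 CPM in basal-like cells of sections 1 to 4 and 2289, 2063, 4843 and 5696 CPM in differentiated-like cells. It was higher in the outer layer of all 4 sections (log2 difference 3.10, SE 0.56, edgeR adjusted p = 0.0156). Klf4 ran from 2185, 2008, 2524 and 9051 CPM to 7473, 8177, 8206 and 14255 CPM, with PITX1+ 4 high in both layers, and the difference was 2.86 (SE 0.74, edgeR adjusted p = 0.0255). The call on Klf4 was lost without PITX1+ 1 (adjusted p = 0.0969) or without PITX1+ 2 (adjusted p = 0.0673). Dlx3 rose from 681 to 3278 CPM in PITX1+ 1, from 526 to 3349 CPM in PITX1+ 2 and from 513 to 2000 CPM in PITX1+ 4, but went from 1849 to 1121 CPM in PITX1+ 3. Its difference of 2.95 (SE 0.88, edgeR adjusted p = 0.0365) was not called with library size scaling (1.63, adjusted p = 0.0904), nor without PITX1+ 1, 2 or 4 (adjusted p = 0.0884, 0.0987 and 0.0615). Trp63 went from 18299, 19052, 24074 and 24393 CPM to 1823, 778, 8206 and 11921 CPM, lower in all 4 sections and far lower in the female ones, yet its log2 difference of -1.32 did not pass (SE 0.62, edgeR adjusted p = 0.128, or -2.61 and 0.0169 with library size scaling).

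**Figure D1:**
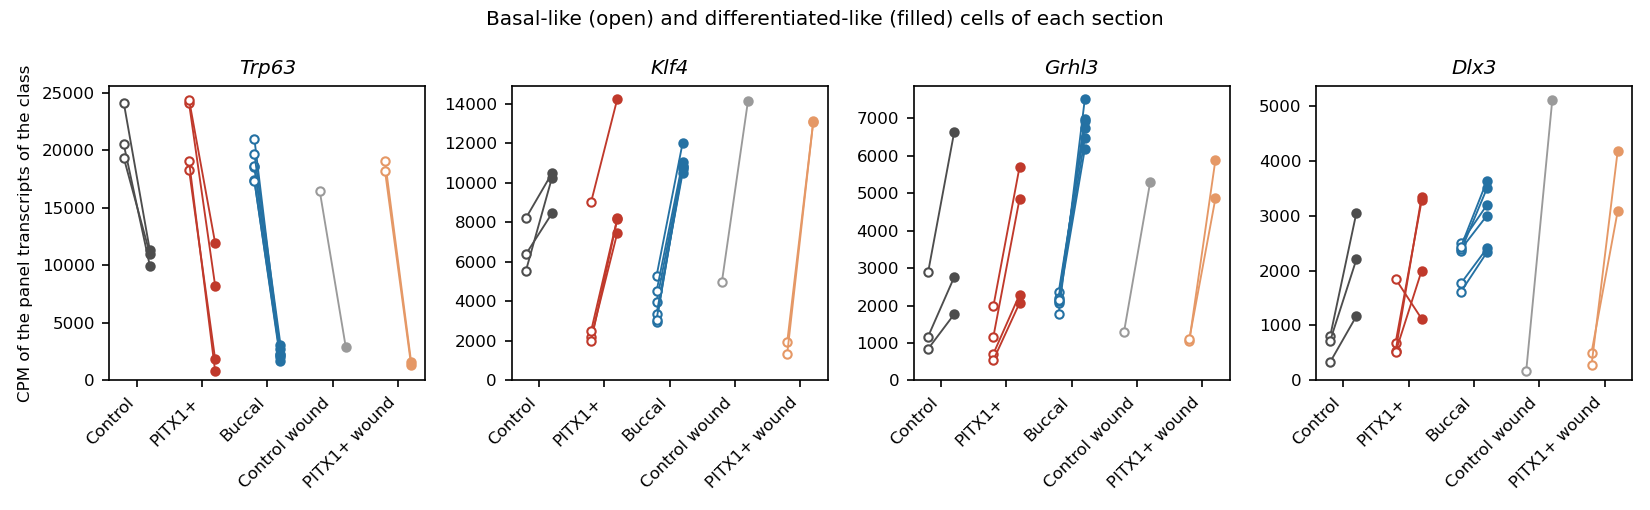
Levels of Trp63, Klf4, Grhl3 and Dlx3 (CPM of the class) in basal-like (open) and differentiated-like (filled) cells, with a line joining the layers of each section, in Control, PITX1+ and buccal tissue and in wounds. Trp63 falls to 1694 to 3090 CPM in the outer buccal layer and to 9950 to 11295 CPM in the outer Control layer.

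Distance from the stroma gave a further measure of depth. The distance itself used no layer marker, but the cells banded were those of interfollicular classes named from such markers. Interfollicular cells were banded by the distance of their centre to the nearest fibroblast-like, vascular-like or muscle-like centre. Trp63 in buccal mucosa was 17827 to 21393 CPM within 10 µm of the stroma (n = 6 sections), with a median of 7086 CPM at 20 to 30 µm, and 502 to 1704 CPM beyond 40 µm. In Control skin Trp63 had a median of 18533 CPM within 10 µm (n = 2, since Control 3 held under 50 such cells) and 13015 to 13290 CPM beyond 40 µm (n = 3). In PITX1+ skin it ran from 17193 to 24061 CPM down to a range of 2084 to 11202 CPM. In CPM the p63 gene was thus lower beyond 40 µm than in the nearest band measured in every unwounded section with epithelial values. Counted per cell it was lower there in 6 of 6 buccal and 4 of 4 PITX1+ sections, but in 1 of 3 Control sections.

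For Grhl3 in buccal mucosa the order of the outer bands hung on the scale. In CPM it was 6888 to 9392 CPM at 20 to 30 µm and 6822 to 8926 CPM at 30 to 40 µm, and 4240 to 5870 CPM beyond 40 µm, lower there in 6 of 6 sections. Per cell the median was 1.73 Grhl3 transcripts at 20 to 30 µm, 2.59 at 30 to 40 µm and 2.50 beyond 40 µm, where it was above the 20 to 30 µm band in 5 of 6 sections and below the 30 to 40 µm band in 5 of 6. Cells of the farthest band held 210.8 to 638 panel transcripts each and those of the nearest 101 to 150. Klf4 in buccal mucosa was 2601 to 6552 CPM within 10 µm, 10752 to 12670 CPM at 30 to 40 µm and had a median of 10635 CPM beyond 40 µm, and per cell its median rose from 0.479 to 3.77 and 5.42 transcripts over those bands. Dlx3 in buccal mucosa ran between 1909 and 3744 CPM in the nearest band and between 2360 and 3659 CPM in the farthest, so the ranges overlapped in CPM. Per cell Dlx3 was higher in the farthest band in 6 of 6 sections, at 0.527 to 2.33 transcripts against 0.202 to 0.497. In Control skin Dlx3 had a median of 629 CPM at 10 to 20 µm and 1674 CPM at 30 to 40 µm. Distance did not follow the layers alike in the 3 tissues, since the median basal-like cell lay 11.9 to 17.0 µm from the stroma in buccal mucosa, 22.0 to 37.1 µm in Control and 13.4 to 20.2 µm in PITX1+ skin, so a band is not the same layer in each. These bands share sections and are a description, with no test.

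**Figure D2:**
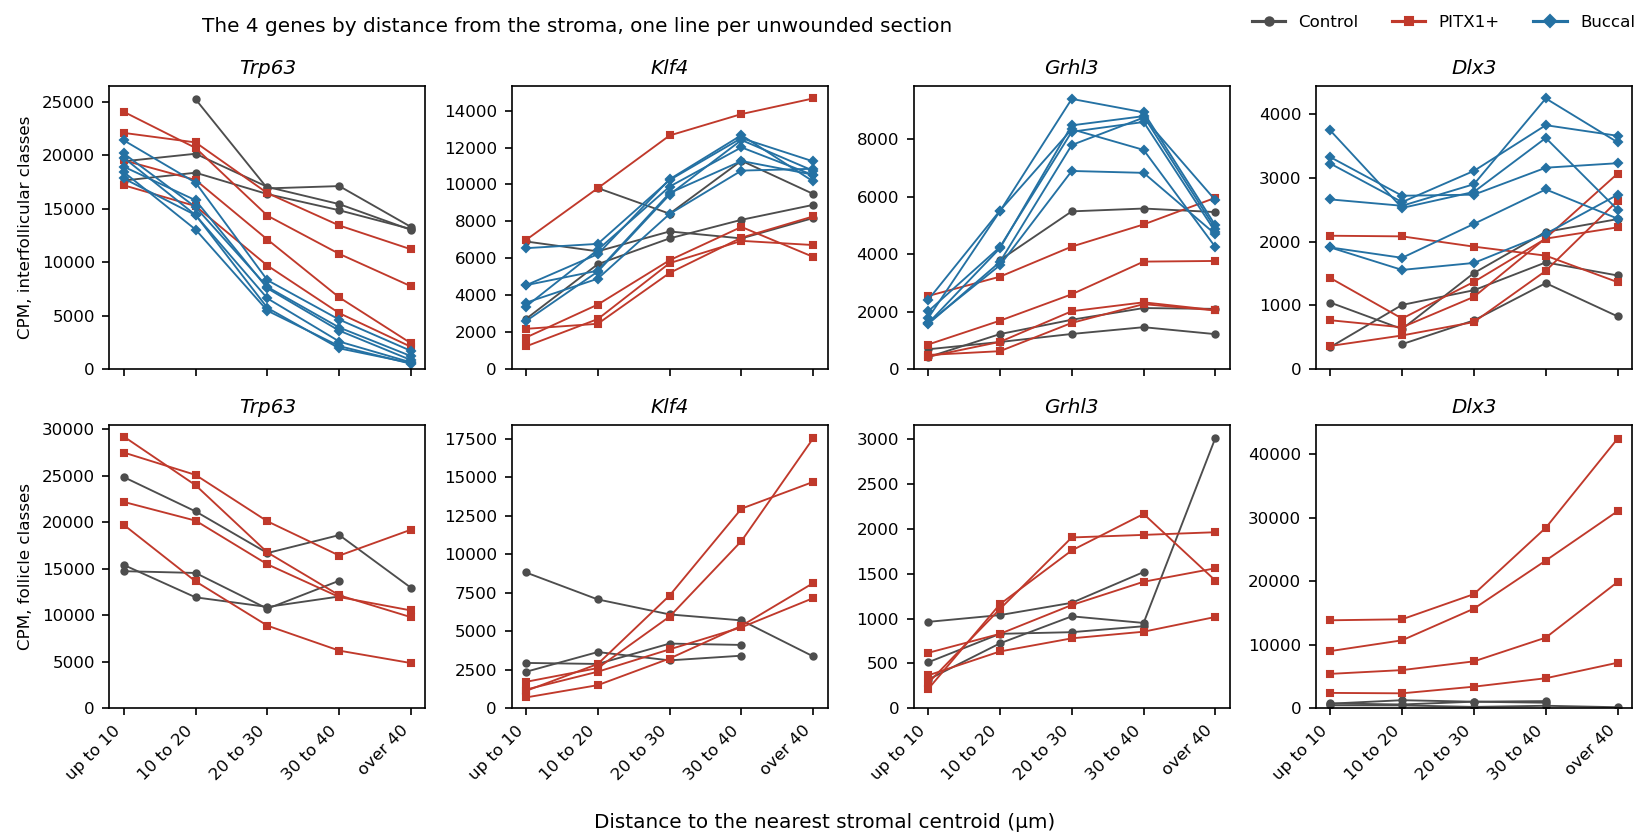
Levels of the same 4 genes (CPM) in interfollicular cells (top row) and follicle cells (bottom row) by distance from the nearest stromal cell centre (µm), with 1 line per unwounded section, coloured by tissue. Trp63 in the top row is lower in the farthest band than in the nearest one, and Grhl3 in buccal mucosa is lower beyond 40 µm than at 20 to 40 µm in CPM, an order that against 20 to 30 µm turns per cell.

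The second comparison set PITX1+ against Control epithelium, with the slide as a covariate. Dlx3 was the 1 member of 4 called, beside 29.3% of the 328 panel genes. It stood at 1472, 1121 and 586 CPM in Control 1 to 3 and at 2442, 4811, 11520 and 12461 CPM in PITX1+ 1 to 4. Every PITX1+ section was above every Control section, and the male PITX1+ sections were the highest. Dlx3 rose by 2.56 on the log2 scale (SE 0.54, edgeR adjusted p = 0.0169). On the female slide, where no rise in Pitx1 was measured over all epithelial cells, the difference in Dlx3 was 1.81 (SE 0.35, adjusted p = 0.0200, edgeR, 2 against 2), beside 26.2% of all genes called there. On the male slide it was 3.95 (SE 0.52, adjusted p = 0.0130, edgeR, 1 against 2, with the lone Control section assumed to vary like the others), beside 28.7% of all genes. The difference between slides, 2.14, was not called (edgeR interaction, adjusted p = 0.0953). Without Control 2 the adjusted p for Dlx3 was 0.0560, and without PITX1+ 2 it was 0.0754, so the call rests on both.

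Klf4 in the whole epithelium was 5994, 5932 and 7500 CPM in Control and 4151, 4235, 5097 and 5811 CPM in PITX1+ skin. All 4 PITX1+ sections lay below the Control sections, and the difference of -0.46 (SE 0.21) did not pass the test (edgeR adjusted p = 0.130). DESeq2 called it (adjusted p = 0.00212), 2 of the 4 with Dlx3, beside 56.1% of all genes. Within slides Klf4 differed by -0.86 on the male one, which was called (edgeR adjusted p = 0.0406, 1 against 2), and by -0.18 on the female one (adjusted p = 0.505). Grhl3 was 1546, 1054 and 3143 CPM in Control and 1330, 1103, 1495 and 1818 CPM in PITX1+ skin, which overlap (log2 difference -0.42, SE 0.36, edgeR adjusted p = 0.381). Its value in Control 3 set the direction, since without that section the difference was 0.24 (adjusted p = 0.506). Control 3 is also the lone Control section of the male slide, where Grhl3 differed by -1.33 and was called (edgeR adjusted p = 0.0261, 1 against 2), and on the female slide it differed by 0.24 (adjusted p = 0.503). With library size in place of TMM neither male value was called, Klf4 at -0.46 (edgeR adjusted p = 0.201) and Grhl3 at -0.92 (adjusted p = 0.0898), beside 24.1% of all genes, and the differences between slides were not called for either (edgeR interaction, adjusted p = 0.270 and 0.0953). Trp63 was 14906, 15137 and 16147 CPM in Control and 9744, 12594, 20098 and 21393 CPM in PITX1+ skin, low on the female slide and high on the male one. Its difference was -0.08 (SE 0.20, edgeR adjusted p = 0.783).

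**Figure D3:**
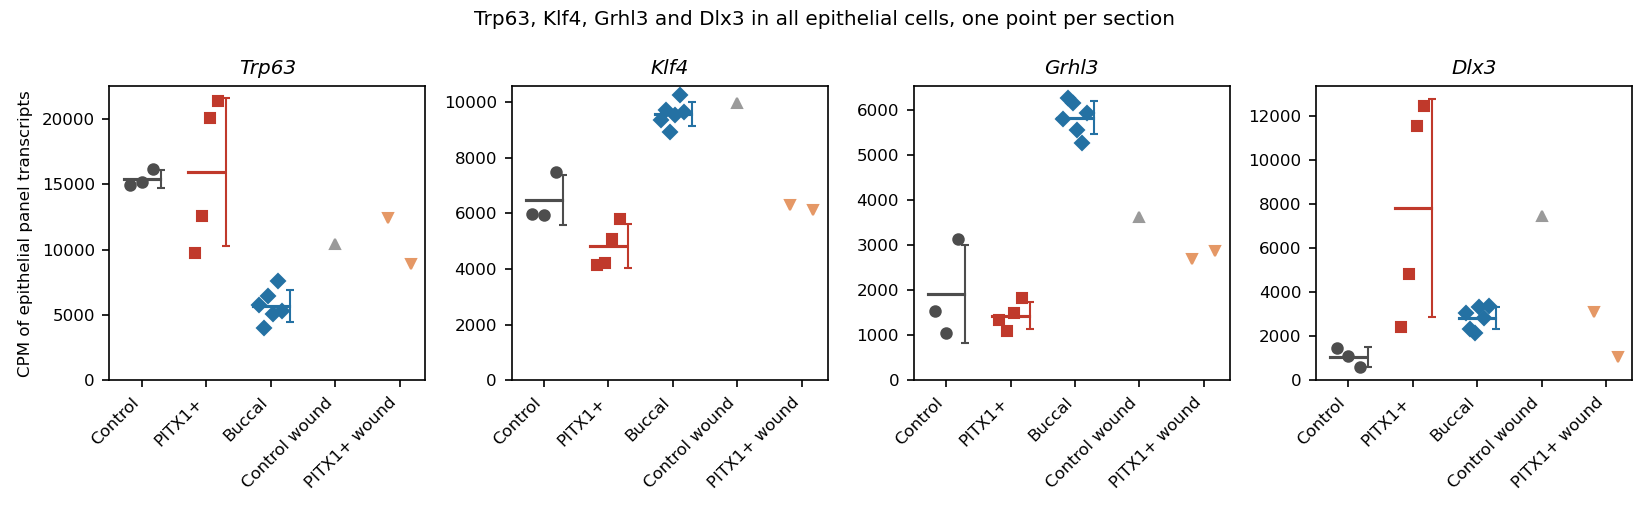
Levels of Trp63, Klf4, Grhl3 and Dlx3 (CPM) in all epithelial cells, 1 point per section, by tissue, with lines at group means and error bars of 1 SD for unwounded tissue. Dlx3 stands at 586 to 1472 CPM in Control and 2442 to 12461 CPM in PITX1+ sections, and Grhl3 at 5263 to 6251 CPM in buccal mucosa.

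The makeup of the epithelium moved with the rise in Dlx3. Hair matrix-like, hair shaft-like and cycling cells, which make growing hair, each numbered under 50 in every Control section, and they held none of the Dlx3 transcripts counted there, 102 to 757 per section, which allows a share of up to 2.94% in the shallowest. In PITX1+ sections 1 to 4 the same classes held 33.8, 57.0, 72.6 and 73.7% of all Dlx3 transcripts. With those classes left out (an alternative chosen after seeing the data), Dlx3 was higher in PITX1+ epithelium, by 1.63 (edgeR adjusted p = 0.0333). That fit called 76 panel genes, Dlx3 among them. What remained was not matched in makeup. In it 2 bulge-like clusters held 11951 and 9656 PITX1+ cells but 165 and 50 Control cells. The part of makeup in the rise, and of hair growth in the remainder, was not tested.

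Within basal-like cells none of the 4 genes was called between PITX1+ and Control by edgeR, beside 0.316% of all genes, which is 1 gene. At an unadjusted p under 0.05, 2 of the 4 passed, beside 27.2% of all genes, and 0 of the 4 did with library size in place of TMM. DESeq2 called 2 of the 4 beside 33.3% of all genes, Klf4 (adjusted p = 0.0476) and Grhl3 (adjusted p = 0.0298). Klf4 was 5545, 6384 and 8213 CPM in Control and 2185, 2008, 2524 and 9051 CPM in PITX1+ skin, low in 3 PITX1+ sections and above all Control sections in PITX1+ 4. The log2 difference of Klf4 was -1.24 (SE 0.51, edgeR adjusted p = 0.169), and -1.72 without PITX1+ 4 (adjusted p = 0.00506). Grhl3, at 1169, 840 and 2883 CPM against 710, 543, 1166 and 1982 CPM, differed by -0.88 (SE 0.33, edgeR adjusted p = 0.146), and by -1.03 without PITX1+ 4 (adjusted p = 0.0475). The fit without PITX1+ 4 called 77 panel genes, these 2 among them, where that with all sections called 1. Trp63 and Dlx3 overlapped between the groups in this layer. In the cluster with most Control cells alone, edgeR called 0 genes. There 0 of the 4 passed an unadjusted p under 0.05, beside 20 panel genes that did. Control basal-like cells also carried transcripts of outer layers, such as Krt77 and Flg2, and their part in these differences was not tested.

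Within differentiated-like cells 0 of the 4 were called by edgeR, beside 2.5% of all genes. None passed an unadjusted p under 0.05 either, beside 22.9% of all genes. Without Control 3, 3 of the 4 were called beside 29.3% of all genes, and DESeq2 over all sections called Dlx3 alone (adjusted p = 0.0462) beside 21.4%. With library size in place of TMM the median over all genes moved from -0.09 to -1.12 on the log2 scale. Dlx3 was 3049, 2202 and 1170 CPM in Control and 3278, 3349, 1121 and 2000 CPM in PITX1+ skin, which overlap (log2 difference 1.33, SE 0.59, edgeR adjusted p = 0.200). On the female slide Dlx3 differed by 2.15 (adjusted p = 0.00831), Grhl3 by 1.74 (adjusted p = 0.0173) and Klf4 by 1.57 (adjusted p = 0.0314) in edgeR, beside 34.3% of all genes. With library size in place of TMM on that slide (an alternative chosen after seeing the data) the differences were 0.33, -0.07 and -0.27, with none of these 3 called (edgeR adjusted p = 0.505, 0.888 and 0.530) beside 76.1% of all genes, so Grhl3 and Klf4 turned direction with the scaling. In CPM there, Klf4 was 7473 and 8177 in PITX1+ against 10270 and 8458 in Control, and Grhl3 was 2289 and 2063 against 2759 and 1767. Trp63 on the female slide differed by -1.35 with TMM (edgeR adjusted p = 0.0519) and by -3.02 with library size, which was called (adjusted p = 0.00104), and over both slides by -0.99 with TMM (SE 0.51, adjusted p = 0.245) and -2.05 with library size (adjusted p = 0.0531). On the male slide, with TMM, Dlx3, Grhl3 and Klf4 differed by 0.19, -0.57 and -0.13 (edgeR adjusted p = 0.972, 0.885 and 0.978), and with library size by 0.42, -0.33 and 0.10. There edgeR called 0.0% of all genes with either scaling, and 20 genes with TMM and 17 with library size had an unadjusted p under 0.05. The tests of the difference between slides were not called (edgeR interaction, adjusted p = 0.151 for Dlx3, 0.0738 for Grhl3 and 0.184 for Klf4). Outer cells of PITX1+ 1 and 2 lay in another cluster than those of Control. In the shared cluster alone the differences were -0.29 for Klf4, -0.01 for Grhl3 and -0.11 for Dlx3, and none was called, beside 3 panel genes. Its PITX1+ cells were mostly those of PITX1+ 3 and 4, so these values cannot speak to the female slide.

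In PITX1+ skin the hair follicle held the highest levels of Dlx3. In hair shaft-like cells, marked by Krtap17-1, Dsg4 and Lrrc15, Dlx3 reached 37524, 41755, 52114 and 59373 CPM in PITX1+ 1 to 4. In hair matrix-like cells, the dividing cells at the base of the growing hair, it was 18679, 15994, 27507 and 30938 CPM. Cycling cells held 6964, 9788, 13689 and 18936 CPM. Immune-like cells of those sections held at most 548 CPM. Levels of Dlx3 were higher in the shaft than in the matrix of all 4 sections. Unwounded Control skin gave no value for these classes, and all its follicle classes together held 16.4 to 21.6% of its Dlx3 transcripts.

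Klf4 too was higher in the shaft than in the matrix, and Trp63 ran the other way. Klf4 was 2822, 2086, 5338 and 4456 CPM in the PITX1+ matrix and 11788, 12464, 25264 and 27243 CPM in the shaft. Trp63 was 20076, 23414, 21966 and 24967 CPM in the matrix and 4234, 4677, 3516 and 5025 CPM in the shaft. Grhl3 in the matrix was 1102, 761, 2197 and 2404 CPM, above its level in basal-like cells of the same section each time. By distance, Dlx3 in follicle cells of PITX1+ 1 to 4 was 2432, 5429, 9013 and 13863 CPM within 10 µm of the stroma and 7183, 19896, 31045 and 42461 CPM beyond 40 µm, higher in the far band of each section.

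Bulge-like cells were 3 clusters named from Lgr5, Sox9, Lhx2 and Krt15, markers of the follicle stem cell region, and Cd34, another such marker, was among the 10 leading genes of none of them. They were present in every skin section and could be tested. Here 2 of the 4 were called between PITX1+ and Control, beside 32.1% of all genes. Dlx3 was 1021, 629 and 416 CPM in Control and 3961, 5524, 6111 and 7854 CPM in PITX1+ skin, with a wide gap between the groups. It rose by 3.07 on the log2 scale (SE 0.36, edgeR adjusted p = 0.000125). Klf4 fell from 3211, 3252 and 7311 CPM to 780, 639, 1056 and 2400 CPM, a log2 difference of -2.16 (SE 0.31, edgeR adjusted p = 0.000444), and no PITX1+ section reached a Control one. Within slides both genes were called, with the male slide holding 1 Control section against 2, whose spread was taken from the other groups. The differences were, for Dlx3, 2.66 and 3.89 and, for Klf4, -2.10 and -2.24 on the female and male slides (edgeR adjusted p = 0.000236, 0.000449, 0.00245 and 0.00342), beside 26.9 and 27.2% of all genes. Trp63 ran from 14425 to 21332 CPM in Control and from 21910 to 29363 CPM in PITX1+ skin, a log2 difference of 0.49 that was not called (edgeR adjusted p = 0.163, or 0.0343 with library size scaling). Grhl3 was 347 to 939 CPM against 427 to 616 CPM (edgeR adjusted p = 0.545).

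Which bulge-like cells were counted mattered for Dlx3. Control cells lay mostly in 1 cluster (4968 cells), which also held 3085 PITX1+ cells, while 2 other clusters held 11951 and 9656 PITX1+ cells. The larger of those was led by Ptch1, a Hedgehog receptor, Cntfr and Lbh. Within the shared cluster Dlx3 was 1032, 629 and 382 CPM in Control and 803, 1111, 949 and 950 CPM in PITX1+ skin, and the difference of 0.53 was not called (edgeR adjusted p = 0.367). Klf4 in the shared cluster was 3234, 3301 and 7664 CPM against 876, 1444, 4553 and 5814 CPM, and its difference of -1.15 was called (edgeR adjusted p = 0.0390), as was that of Grhl3, -1.50 (edgeR adjusted p = 0.0390), beside 11.3% of all genes. The high Dlx3 of PITX1+ bulge-like cells was measured in the other clusters, for example 4308, 5859 and 5742 CPM in 1 of them in PITX1+ 1, 2 and 3. The call on Klf4 over the whole class was lost without the slide covariate (-1.87, adjusted p = 0.184).

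Upper follicle-like cells, marked by Krt79 with Plet1 or Lrig1, gave no call on the 4 genes by edgeR or by DESeq2, beside 18.1% of all genes, and 1 passed an unadjusted p under 0.05, beside 32.1%. DESeq2 called 24.3% of all genes. The 50 genes that edgeR called were 22 without Control 1 or 2, 24 without PITX1+ 1, 29 without PITX1+ 2 and 13 without the slide covariate. Without PITX1+ 4 they were 71. Klf4 was 3505, 3689 and 4248 CPM in Control and 4236, 3951, 7071 and 5110 CPM in PITX1+ skin (log2 difference 0.58, edgeR adjusted p = 0.0999, or 0.66 and 0.0364 without PITX1+ 4). Dlx3 was 1228, 1023 and 250 CPM in Control and 1171, 1185, 2429 and 1192 CPM in PITX1+ skin, which overlap (log2 difference 1.06, edgeR adjusted p = 0.154). In sebaceous-like cells Trp63 was 7426 to 8024 CPM in Control and 6822 to 8824 CPM in PITX1+ skin, and Dlx3 was near its level in immune-like cells.

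**Figure D4:**
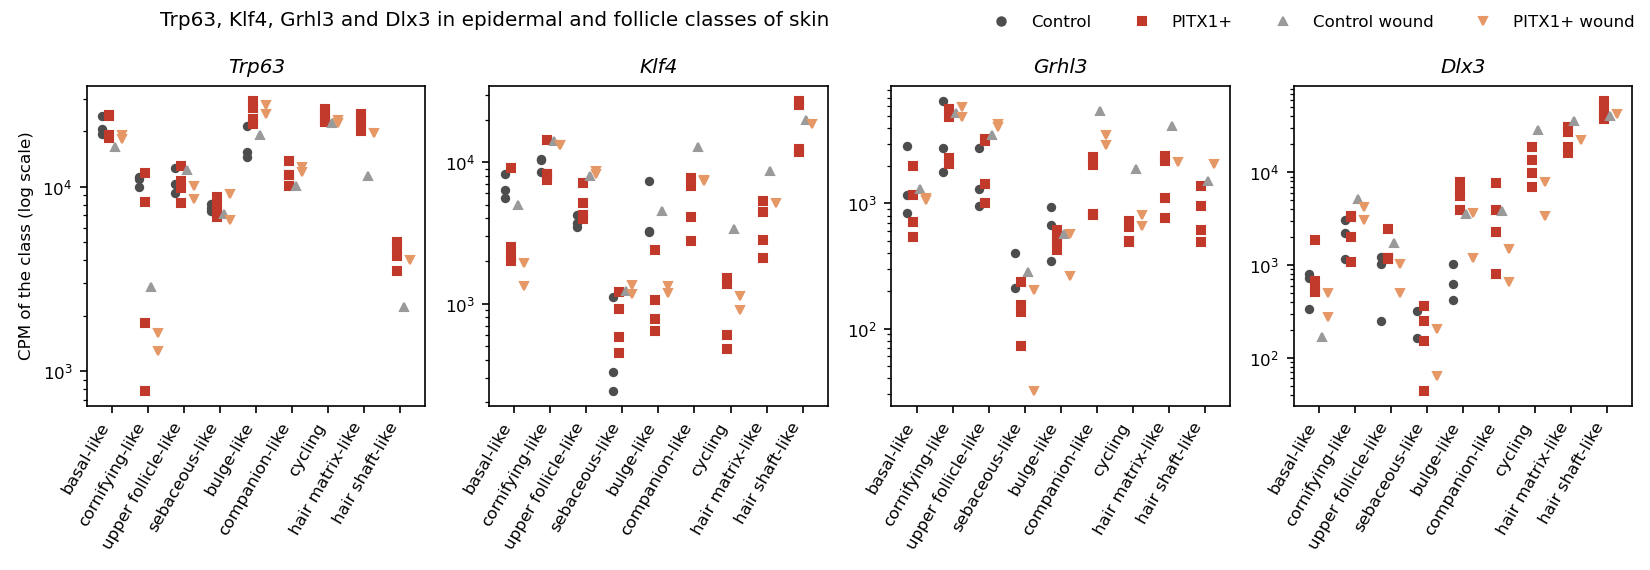
Levels of the 4 genes (CPM, log axis) in the epidermal, follicle and gland classes of skin, 1 point per section with at least 50 cells of the class, coloured by condition, with values of 0 not drawn. Dlx3 stands at 37524 to 59373 CPM in PITX1+ hair shaft-like cells and at 416 to 1021 CPM in Control bulge-like cells.

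The third comparison set buccal mucosa, an oral lining without hair, against Control skin. Tissue and slide cannot be told apart here. In the whole epithelium 3 of the 4 were called, all higher in buccal mucosa, beside 68.0% of all genes. Grhl3 was 5263 to 6251 CPM in buccal mucosa (median 5862, n = 6) against 1546, 1054 and 3143 CPM in Control, with no overlap. It was higher by 2.91 on the log2 scale (SE 0.44, edgeR adjusted p = 0.000182). Klf4 was 8939 to 10266 CPM against 5994, 5932 and 7500 CPM, higher by 1.93 (SE 0.25, edgeR adjusted p = 6.03e-05). Dlx3 was 2168 to 3374 CPM against 1472, 1121 and 586 CPM, higher by 2.88 (SE 0.31, edgeR adjusted p = 1.90e-05). With library size in place of TMM those differences were 1.61, 0.56 and 1.42 for Grhl3, Klf4 and Dlx3, and all 3 were still called (adjusted p = 0.000618, 0.0149 and 0.00140). Trp63 was 3974 to 7588 CPM against 14906 to 16147 CPM, which do not overlap, and its size and call hung on the scaling, at -0.08 with TMM (SE 0.20, edgeR adjusted p = 0.729) and -1.43 with library size (adjusted p = 6.44e-05).

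Within basal-like cells edgeR with TMM called Dlx3 alone between buccal mucosa and Control, 1 of 4 beside 62.1% of all genes. Dlx3 ran from 1613 to 2500 CPM in buccal basal-like cells (median 2373) and was 808, 726 and 335 CPM in Control, higher by 2.14 (SE 0.28, edgeR adjusted p = 8.46e-05). Grhl3 at 1785 to 2363 CPM overlapped Control, where section 3 was high at 2883 CPM. Its log2 difference was 0.69 (edgeR adjusted p = 0.148), and 1.58 without Control 3 (adjusted p = 0.000113). Klf4 differed by -0.49 (edgeR adjusted p = 0.107, or -0.80 and 0.00907 with library size) and Trp63 by 0.14 (edgeR adjusted p = 0.538), with Trp63 at 17332 to 20997 CPM in buccal mucosa and 19346 to 24137 CPM in Control. Other settings added calls. Klf4 was called with DESeq2 (-0.68, adjusted p = 0.0165, beside 185 genes) and with nuclear transcripts (-0.68, edgeR adjusted p = 0.0483, beside 153). Grhl3 and Trp63 were called with transcripts of any quality (1.15 and 0.46, edgeR adjusted p = 0.0163 and 0.0345, beside 211 genes) and with 30 clusters (1.80 and 0.62, adjusted p = 0.000190 and 0.0377, beside 199 genes).

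Within differentiated-like cells 3 of 4 were called, beside 70.2% of all genes. Grhl3 was 6181 to 7518 CPM in buccal mucosa against 2759, 1767 and 6634 CPM in Control, higher by 2.55 (SE 0.47, edgeR adjusted p = 0.000463), and still by 0.88 with library size (adjusted p = 0.0309). Klf4 at 10510 to 12028 CPM lay just above Control at 8458 to 10490 CPM. Its difference of 1.91 (SE 0.27, edgeR adjusted p = 5.35e-05) became 0.17 with library size (adjusted p = 0.391). Dlx3 at 2335 to 3639 CPM overlapped Control at 1170 to 3049 CPM, and its difference of 2.29 (SE 0.33, edgeR adjusted p = 5.88e-05) became 0.48 with library size (adjusted p = 0.138). Trp63, at 1694 to 3090 CPM against 9950 to 11295 CPM, differed by -0.51 with TMM (SE 0.22, edgeR adjusted p = 0.0579) and by -2.21 with library size (adjusted p = 1.50e-06). The 5 most abundant genes took 33.41 to 38.44% of panel transcripts in buccal differentiated-like cells, led by Krt4, Sprr3 and Tgm3. In Control they took 32.05 to 42.85%, led by Krt77, Flg2 and Lor. Over all epithelial cells the shares were 26.9 to 33.9% in buccal mucosa and 24.4 to 29.5% in Control.

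In wounds there was 1 Control section against 2 PITX1+ sections, so values are given with 95% exact Poisson intervals, which cover counting error only, and no test was made. Dlx3 in wound epithelium was 7436 CPM (7239 to 7638) in the Control wound and 3088 (3002 to 3176) and 1041 CPM (994 to 1090) in the PITX1+ wounds, the opposite order to unwounded skin. Klf4 was 9968 CPM (9739 to 10201) in the Control wound and 6303 (6179 to 6428) and 6116 CPM (6001 to 6233) in the PITX1+ wounds. Follicle makeup also differed between the wounds. Hair matrix-like, hair shaft-like and cycling cells held 7.17% of all transcripts in the Control wound and 0.728 to 4.08% in the PITX1+ wounds. They held 66.4% of Dlx3 transcripts in the Control wound and 51.2 and 8.42% in the PITX1+ wounds. The part of follicle makeup in the order of Dlx3 was not tested.

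In basal-like wound cells Klf4 was 4975 CPM (4573 to 5401) in the Control wound and 1926 (1771 to 2091) and 1323 CPM (1198 to 1456) in the PITX1+ wounds. Dlx3 there was at most 504 CPM in all 3 wounds. In differentiated-like wound cells Klf4 was 14143, 13104 and 13122 CPM and Grhl3 was 5293, 5899 and 4868 CPM in the Control and the 2 PITX1+ wounds. Trp63 was 16476, 19068 and 18192 CPM in basal-like and 2868, 1607 and 1322 CPM in differentiated-like wound cells, a drop from layer to layer in each wound. Grhl3 in the whole epithelium was 3615, 2687 and 2864 CPM.

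The share of transcripts over the nucleus, taken over all epithelial cells together, differed between these genes. Layers were not held apart in this measure. In the median buccal section basal-like cells held 55% of Trp63 transcripts, and differentiated-like cells held 74% of Klf4 and 82% of Dlx3. The part of layer and cell shape in the nuclear shares was not tested. Of Trp63 transcripts in buccal epithelium, 59.4 to 61.2% lay over the nucleus, against 37.4 to 44.8% for the median panel gene. Of Klf4 transcripts there, 22.0 to 31.1% did, and of Dlx3 23.0 to 32.4%. In Control skin the share was 62.3 to 65.3% for Trp63 and 41.6 to 52.2% for Klf4, against 52.6 to 62.7% for the median gene. The ranges of Klf4 lay below those of the median gene in both tissues, and the range of Trp63 lay above in buccal mucosa and touched it in Control.

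The panel genes whose levels ran most like each member were found over 98 points, each a section and epithelial class. The points share sections and depth, so Spearman's rho is a description. For Trp63 they were Ephb4 (0.93), an ephrin receptor, Lama5 (0.90), a laminin chain of the basement membrane, and Col7a1 (0.87), the anchoring fibril collagen. For Klf4 they were Cnfn (0.86), a cornified envelope gene, Dsg1a (0.79), a suprabasal desmoglein, and Grhl3 (0.76). For Grhl3 they were Dsg1a (0.80), Klf4 and Cnfn (both 0.76). For Dlx3 they were Ephb3 (0.66), Lrrc15 (0.58) and Wnt5a (0.56). Trp63 ran against Klf4 (-0.55) and Grhl3 (-0.38).

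Other genes of epidermal differentiation were tested in the same fits. In PITX1+ against Control epithelium, where 29.3% of all genes were called, of 13 basal adhesion and keratin genes 2 rose and 4 fell (median log2 difference -0.31, against -0.05 over all genes tested), with Lama5 at 1.39, Krt15 at -2.74 and Col17a1, the hemidesmosome collagen, at -2.08. Of 12 cornified envelope genes 3 rose and 1 fell (median 1.23), with Sprr1b at 4.11, Tgm3, an envelope crosslinking enzyme, at 2.76 and Flg2 at -2.38. Of 7 suprabasal keratin and desmosome genes 1 rose, Krt4 at 3.16, and 2 fell, among them Krt77 at -3.07. Of 4 genes listed for hair shaft and inner root sheath 2 rose, Dsg4 by 4.15 and Mt4 by 0.73. Mt4 was not particular to hair, at 39470 ± 4067 CPM (SD) in buccal epithelium against 1454 ± 77.9 CPM in Control. Of 21 other transcription factors of the panel 2 rose and 5 fell, with Lbh at 1.87 and Rxra at -1.52, and 0 of 3 Notch genes were called (edgeR).

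In bulge-like cells, beside 32.1% of all genes, 3 of 13 basal adhesion and keratin genes rose and 2 fell, with Lamc1 at 1.91, Col17a1 at -2.39 and Krt15 at -2.31. Of the 21 other transcription factors 2 rose, Lbh by 2.31 and Tsc22d1 by 1.13, and Rora fell by 1.57 on the log2 scale. Notch1, a Notch receptor, rose by 0.88, and the other Notch genes were not called. In buccal against Control epithelium, beside 68.0% of all genes, 8 of 12 cornified envelope genes were higher and 3 lower (median 5.40 against -0.27 over all genes), with Sprr3 at 8.89, Tgm3 at 8.31 and Flg2 at -8.91. There 5 of 7 suprabasal genes were higher, Krt4 by 11.99 and Krt78 by 3.69 among them, and Krt77 and Krt1 were lower (-12.26 and -5.64). Of the 21 other transcription factors 7 were higher and 8 lower, with Sox2 at 5.83, Pitx1 at 5.73 and Lhx2 at -6.70.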

How the data were processed

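Skin and buccal mucosa were measured by Xenium In Situ on a panel of 328 genes. The authors deposited decoded transcripts with a Phred-scaled quality score, cell positions in µm and counts of transcripts per cell. Software version, segmentation settings and genome build are not given in the sources used here. Transcripts with a quality of at least 20 were counted per cell. Cell totals equalled the deposited counts in 100% of cells.

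Sections were chains of cells within 100 µm (200 µm on the wound slide) holding at least 2000 cells, and their condition was assigned by their order along the slide. The 4 genes, the marker lists and the gene lists were chosen with earlier results of these data known. Cells with at least 10 transcripts were clustered (k-means, 45 clusters on 40 principal components, scikit-learn 1.9.0), with the 4 genes left out, and clusters were named from at least 3 detected markers. Cells were not treated for doublets. The named genes are the 4 genes, Pitx1, for each list up to 4 genes with the largest log2 fold change past the threshold, and for each of the 4 genes the 3 panel genes with the highest Spearman correlation.

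Counts were summed per section and class, with sections under 50 cells of a class left out, and given as CPM. They were tested in edgeR 4.0.16 (R 4.3.3, quasi-likelihood, TMM, filterByExpr, two-sided, Benjamini-Hochberg over all genes tested, threshold 0.05). The slide, and with it the sex, entered skin comparisons as a covariate, and layer comparisons had the section as a block. DESeq2 1.42.0 was an alternative. Scripts were tested on simulated data. Depth ran from 136365 to 5581930 transcripts per section.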

Additional observations from a re-analysis of the deposited data

Results flagged for a closer look

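A sample far from the others was looked for in 52 groups of at least 4 sections and found in 5, and chance alone flags about 1 in 20 groups. Klf4 in basal-like cells was 9051 CPM in PITX1+ 4, far above the other PITX1+ sections. Klf4 in differentiated-like cells of the same section was 14255 CPM, again the highest of its group. Dlx3 in basal-like cells was 1849 CPM in PITX1+ 3, and in upper follicle-like cells of that section it was 2429 CPM, both high for the group. Klf4 in differentiated-like cells was 12028 CPM in Buccal 6, the highest of 6 buccal sections.

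The change in Pitx1 between PITX1+ and Control epithelium was 5.48 larger (log2) on the male than on the female slide (edgeR interaction, adjusted p = 0.0172). Pitx1 was higher than Control in 2 of 2 male PITX1+ sections.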

How the results depend on the processing

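With TMM, edgeR called 96 genes in PITX1+ against Control epithelium, 1 in basal-like cells and 7 in differentiated-like cells, and 123 and 84 genes between layers in Control and PITX1+ skin. DESeq2 called 184, 101 and 60 genes in the first 3 and 163 between PITX1+ layers. Without the slide covariate the first 3 counts were 26, 0 and 0. Basal-like cells gave 4 genes with nuclear transcripts, 39 with 30 clusters, 2 with 60 clusters and 0 in the cluster with most Control cells. Differentiated-like cells gave 25 with library size, 2 without the gene filter, 0 with transcripts of any quality, 2 with cells of at least 20 transcripts, 2 with 30 clusters, 1 with 60 clusters, 4 with activated-like cells added and 3 in the cluster with most Control cells. Where edgeR called 0 genes under these settings, 20 to 68 had an unadjusted p under 0.05. Without the section as a block, the layers gave 16 genes in Control and 44 in PITX1+ skin. Leaving out 1 section at a time gave 30 to 109 genes in PITX1+ epithelium, 0 to 77 in basal-like cells, 0 to 93 in differentiated-like cells, 72 to 124 between Control layers and 10 to 113 between PITX1+ layers, and the fits with 0 calls had 29 to 44 genes at an unadjusted p under 0.05.

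Bulge-like cells gave 105 genes, 49 with 30 clusters, 22 without the slide covariate and 30 in the cluster with most Control cells, and upper follicle-like cells gave 50, or 32 with 60 clusters. For single genes, Trp63 between Control layers turned from -0.55 to 0.37 with 30 clusters. Of 449 values of the 4 genes under other settings, 11 lost a call without turning direction, 26 gained one and 411 kept their side of the threshold. The remaining 1, that value of Trp63, turned direction and lost its call. Of 314 values with 1 section left out, 8 lost a call, 11 gained one and 295 kept it. Values not called could change sign among those kept. The alternatives by cluster, with activated-like cells, without growing-follicle classes and with library size within slides were chosen after seeing the data. The cause of each change was not tested. No paired analysis was possible between conditions because the labels give a single replicate number to each slide and sections carry none, while layers were paired within sections. Precision is limited by 3 Control and 4 PITX1+ sections, and Control 3 held 163874 epithelial transcripts, the fewest of the unwounded skin sections.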
